A study of Mus musculus with 36 samples.

Results

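Mouse embryonic stem cells (mESCs) held for 48 h in serum + PD03 expressed less of the actin, adhesion and matrix programme on soft substrates than on stiff ones, and slightly more of several naive pluripotency genes. The comparison used every library labelled soft or stiff, 48 h and serum + PD03, which were 9 of the 36 libraries of the series, 6 soft and 3 stiff. It covered the 17702 genes of 49671 that passed the filter on low counts. Both groups were wild-type mESCs labelled 129m, and no LIF was added to either. The substrates were StemBond hydrogels, polyacrylamide gels to which matrix protein is bound through an added co-factor, here, per the study's methods, at a single tethering strength and coated with fibronectin. PD03 is an inhibitor of MEK, the kinase that activates ERK. The question was whether the response to stiffness needs LIF or ERK signalling, and the serum and serum + LIF + PD03 libraries, 3 soft and 3 stiff in each, serve here as reference media. All libraries came from a single cell line, and the labels do not say whether replicates were separate cultures, so p-values measure the spread between these libraries, which may be technical.

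FGF signalling through RAS, RAF, MEK and ERK pushes naive mESCs towards differentiation, and blocking MEK holds them close to the naive state of the pre-implantation epiblast. LIF sustains the same state through the transcription factor STAT3. Adherent cells on a rigid, well anchored substrate build focal adhesions and contractile actin bundles, and both the loss of free actin monomer, sensed through SRF, and the nuclear entry of YAP, which acts with TEAD factors, turn on cytoskeletal and matrix genes.

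Levels are given as CPM, counts scaled to a common library size by TMM. The 9 libraries held 10405696 to 24487753 counts. 3 targets of ERK fixed as a check of the inhibitor were far below their serum levels on both substrates. Spry4, a feedback inhibitor of the pathway, lay between 0.257 and 1.15 CPM on stiff and between 0.966 and 1.36 CPM on soft, against 121 to 136 CPM and 123 to 128 CPM in serum alone. Dusp6, an ERK phosphatase, lay between 8.55 and 10.4 CPM on stiff and between 8.96 and 10.9 CPM on soft, against 79.4 to 90.9 CPM and 65.6 to 75.4 CPM in serum. Etv4, an ETS factor induced by ERK, was at 1.35 to 2.21 CPM and 1.52 to 2.62 CPM, against 82.6 to 90.8 CPM and 73.4 to 83.5 CPM. Not every ERK-induced gene was as low: Etv5 was at 239.8 to 281.7 CPM over both substrates, against 391 to 426 CPM in serum, and Ier3 was above its serum level. General pluripotency genes summed to 2443 to 2490 CPM on stiff and 2591 to 2736 CPM on soft, and Pou5f1, Sox2 and Nanog, which define pluripotent cells, were abundant in every library. By the sample descriptions, the 3 stiff libraries and 2 of the 6 soft ones belonged to 1 library set and the other 4 soft ones to another, but the columns of counts carry no replicate number, so which soft libraries shared the set is unknown. The stiff 48 h serum + LIF group, which lies outside this contrast, was split over sets as well. Every fit was therefore repeated with the set as a term under all 45 possible assignments. These cross the 15 choices of soft libraries with the possible splits of that group, so counts out of 45 hold only 15 distinct choices of soft libraries. Soft library 2 was the shallowest and stood apart in a principal component analysis, and soft library 3 differed most from the other soft libraries in its counts (chi-square per gene of up to 12.8, against 2.65 to 5.22 among the rest).

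Soft and stiff differed by small rises and larger falls. With edgeR's quasi-likelihood test and Benjamini-Hochberg adjustment over all genes tested, 982 genes (5.55%) passed an adjusted p of 0.05. On soft, 377 genes (2.13%) were higher, with a median log2 fold change of 0.20, and 605 genes (3.42%) were lower, with a median of -0.47. Past a log2 fold change of 0.5 in either direction there were 14 genes that rose and 278 that fell. Protein-coding genes made up 82.7% of the genes tested, 97.3% of those higher and 98.5% of those lower. The values of the 6 soft and the 3 stiff libraries did not overlap for 320 of the genes that rose and 540 of those that fell, against 11.6% of all genes tested, 5.85% higher and 5.77% lower on soft. The count depended on the stiff libraries: it was 520 without stiff library 1, 650 without stiff library 3, and 276 to 678 with the library set as a term. The number of genes that rose dropped further than the number that fell: it was 142 and 155 without these stiff libraries, and 53 and 234 in the set assignments with the fewest and the most calls, where 378, 495, 223 and 444 genes fell. Of the 982 genes, 164 passed under all 45 assignments, 19 higher and 145 lower. The plot of fold change against level shows this asymmetry.

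**Figure D1:**
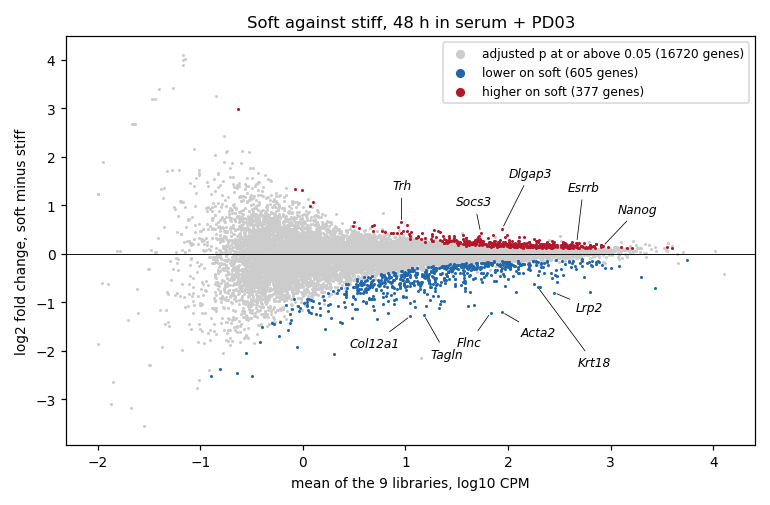
Log2 fold change, soft minus stiff, of each of the 17702 genes tested (y axis) against its mean over the 9 libraries in log10 CPM (x axis). Most of the 377 genes higher on soft (red) lie close to 0, while the 605 lower ones (blue) reach far below it over a wide range of levels.

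Genes of the contractile actin apparatus and targets of SRF were lower on soft almost throughout. Of 19 tested, 17 fell and none rose (background 3.42% lower), with a median log2 fold change of -0.35 against 0.01 over all genes tested. Flnc, which codes for the actin cross-linker filamin C, was at 116, 105 and 105 CPM on stiff, and between 40.1 and 50.5 CPM with a median of 47.8 CPM on soft. Every soft library lay well below every stiff one, and Flnc fell 2.325-fold (log2 fold change -1.22, SE 0.06, adjusted p = 3.28e-21). Acta2, smooth muscle actin, was at 151, 137 and 130 CPM on stiff and between 50.7 and 69.6 CPM (median 62.9) on soft, without overlap (log2 fold change -1.20, SE 0.08, adjusted p = 1.91e-15). Tagln, the actin-binding protein transgelin, was at 26.4, 24.3 and 23.6 CPM on stiff and between 9.42 and 10.98 CPM (median 10.5) on soft, again without overlap. Tpm1, a tropomyosin, was far more abundant, at 360, 347 and 339 CPM on stiff, and fell less, to between 253 and 269 CPM (log2 fold change -0.43, SE 0.04). Srf itself, with values of 124 to 130 CPM on stiff and 123 to 132 CPM on soft, and the cytoplasmic actin gene Actg1 (log2 fold change -0.10, adjusted p = 0.31) did not pass the test. Those were the 2 tested members outside the threshold, and Actg2 was not tested. Flnc, Tagln, Cnn1, Acta2 and Acta1 were displayed by the study for these very samples, so the list is not independent evidence of its direction.

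SRF binds the CArG box, and promoter sequences of the list were searched for it on both strands, in windows from 250 bases before to 50 bases after each start given by RefSeq on GRCm38.p6. The box was found in 6 of the 17 list genes with a window (Acta1, Actg1, Cnn2, Myl9, Srf and Vcl), and in 1.81% of all 27025 genes with a window. The 4 of them that fell, picked after their values were seen, are shown so that the letters SRF recognises can be read beside their values, 5′ to 3′ on the gene's own strand with the box in capitals.
Acta1: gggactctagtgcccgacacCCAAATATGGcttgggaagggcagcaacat
Myl9: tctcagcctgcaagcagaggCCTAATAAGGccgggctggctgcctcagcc
Cnn2: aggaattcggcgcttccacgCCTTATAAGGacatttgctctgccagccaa
Vcl: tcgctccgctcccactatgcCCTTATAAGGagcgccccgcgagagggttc
These stretches are chr8:123894819-123894868 on the minus strand for Acta1, and on the plus strand chr2:156775283-156775332 for Myl9, chr10:79988524-79988573 for Cnn2 and chr14:20929151-20929200 for Vcl. The box began 73 bases before the start in Acta1, 161 in Myl9, 56 in Cnn2 and 227 in Vcl. These genes fell by unequal amounts, while Srf and Actg1, which also hold the box, did not pass. Acta1, skeletal muscle actin, was at 36.4, 31.95 and 30.5 CPM on stiff and between 14.6 and 18.5 CPM (median 17.3) on soft, a 1.97-fold fall (log2 fold change -0.98, SE 0.09). Myl9, a regulatory myosin light chain, fell 1.24-fold from 56.6, 54.9 and 54.0 CPM to between 37.1 and 47.6 CPM. Cnn2, a calponin, fell 1.21-fold and Vcl, the adhesion protein vinculin, 1.17-fold. In all 4 genes every soft library lay below every stiff one. A match is a description of these letters and no evidence of binding in these cells.

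Targets of YAP and TEAD were also lower on soft. Of 13 tested, 10 fell and none rose, with a median log2 fold change of -0.57. Thbs1, which codes for the matrix glycoprotein thrombospondin 1 and which the study had also shown, was at 72.2, 72.7 and 69.6 CPM on stiff and between 31.3 and 39.0 CPM (median 33.8) on soft (log2 fold change -1.06, SE 0.07, adjusted p = 3.41e-17). Tgfb2, a TGF-beta ligand, was at 16.98, 16.4 and 17.1 CPM on stiff and between 7.27 and 9.52 CPM on soft, and fell 2.02-fold. F3, tissue factor, fell 1.96-fold, from 16.5, 19.4 and 17.98 CPM to between 7.77 and 10.05 CPM. Stiff and soft values were clearly apart for these 3 genes. Crim1, a transmembrane regulator of BMP ligands, fell 1.56-fold, from 30.3, 28.7 and 26.3 CPM to between 16.95 and 19.3 CPM. The TEAD motif GGAATG, searched on both strands (as CATTCC on the other), was present in 7 of the 10 list genes with a window, in 8 of the 17 of the actin list (Acta2, Flnc and Tpm1 among them) and in 16.6% of all genes with a window. It shared bases with a CArG box in 6 windows of all genes. Among the 7 were Axl, a receptor tyrosine kinase, and Crim1, whose matches are shown as examples from genes that fell, with the motif in capitals.
Axl: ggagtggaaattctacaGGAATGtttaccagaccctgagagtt
Crim1: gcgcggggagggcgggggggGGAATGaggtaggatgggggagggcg
The stretches are chr7:25788941-25788983 (minus strand) for Axl and chr17:78200149-78200194 (plus strand) for Crim1 on GRCm38.p6. Axl was at 8.20, 6.955 and 7.32 CPM on stiff and between 3.22 and 4.43 CPM (median 3.34) on soft, a 2.10-fold fall (log2 fold change -1.07, SE 0.14, adjusted p = 4.40e-07). Of 14 Hippo kinases, adaptors and TEAD factors tested, which act upstream of these targets, 1 passed (7.14%, close to the 5.55% of all genes tested), Lats2, the YAP kinase that is itself a YAP target, from 17.2, 17.6 and 20.1 CPM to between 11.1 and 14.7 CPM (log2 fold change -0.57, SE 0.10). AP-1 sites (TGANTCA) were found in 1 window gene of each list, Zyx and F3, and in 8.97% of all genes with a window.

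The adhesion machinery fell in part. Of 22 integrin and focal adhesion genes tested, 9 fell and none rose, and the median log2 fold change was -0.10. Zyx, the tension-sensitive adhesion protein zyxin, was at 102, 95.0 and 96.6 CPM on stiff and between 61.0 and 70.6 CPM on soft (log2 fold change -0.57, SE 0.05, adjusted p = 4.68e-11). Parva, alpha-parvin, which links integrin-linked kinase to actin, fell 1.55-fold, from 42.9, 39.9 and 36.5 CPM to between 23.7 and 27.6 CPM. Itgb1, the beta subunit shared by the fibronectin and laminin receptors, fell 1.21-fold, and Tln1, the integrin activator talin, 1.19-fold. The soft and stiff values of these 4 genes did not overlap, so small falls were resolved where the level was high. With the library set as a term, 4 to 7 adhesion genes passed.

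Collagens and the enzymes that shape the matrix followed. Of 20 collagen and basement membrane genes tested, 9 fell and none rose, with a median log2 fold change of -0.21. Col12a1, a fibril-associated collagen, was at 20.6, 19.6 and 14.6 CPM on stiff and between 5.93 and 9.12 CPM (median 7.95) on soft, a 2.44-fold fall (log2 fold change -1.28, SE 0.14, adjusted p = 6.80e-10). Col1a1, the main chain of fibrillar type I collagen, was at 66.8, 66.4 and 55.2 CPM on stiff and between 24.0 and 34.3 CPM on soft, a 2.12-fold fall. The basement membrane chains Col4a1 and Col4a2 were much more abundant and moved less. Col4a1 was at 606, 580 and 586 CPM on stiff and between 484 and 518 CPM on soft, a 1.19-fold fall, and Col4a2 fell 1.27-fold. Of 16 matrix remodelling genes, 8 fell and none rose, with a median log2 fold change of -0.42. Lox, the enzyme that cross-links collagen, was at 4.10, 3.31 and 4.43 CPM on stiff and between 0.861 and 2.03 CPM on soft (log2 fold change -1.41, SE 0.23), low in level but without overlap. Serpinh1, the collagen chaperone HSP47, fell 1.42-fold, from 60.4, 54.3 and 55.4 CPM to between 34.7 and 42.5 CPM. Timp2, a metalloproteinase inhibitor, and Adamts1, a secreted protease, fell 1.71-fold and 1.99-fold. The plot of these genes by library shows stiff values close together and soft values to their left.

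**Figure D2:**
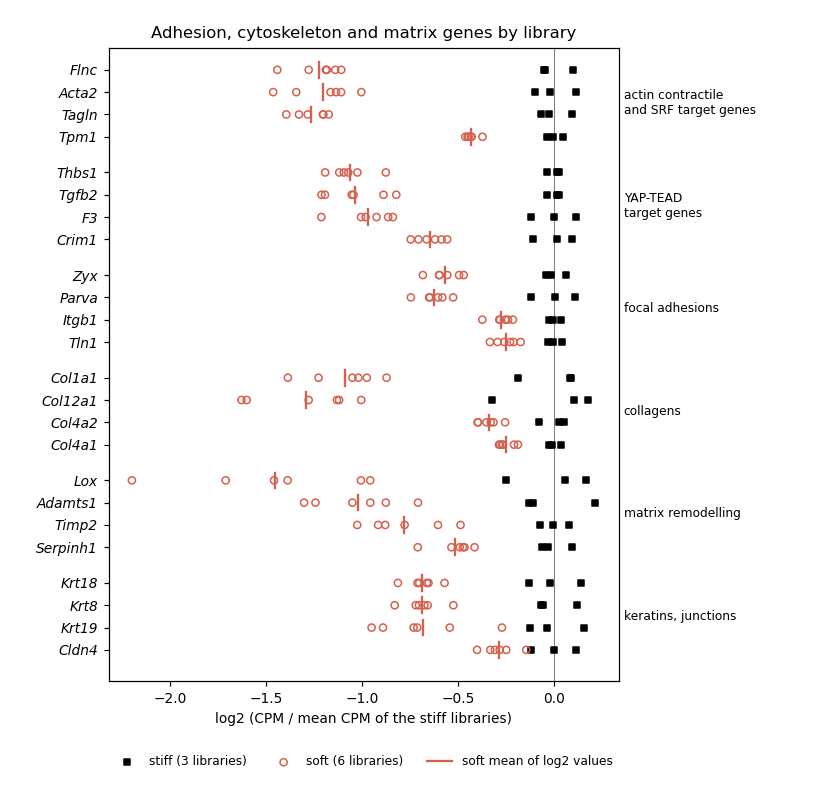
Log2 ratio of each library's CPM to the mean CPM of the 3 stiff libraries (x axis) for 24 genes of 6 groups (y axis), with stiff libraries as black squares, soft libraries as open circles and the soft mean as a bar. For each of the 24 genes all 6 soft libraries lie below all 3 stiff ones, by the most in Lox and Col12a1 and by the least in Itgb1, Tln1, Col4a1 and Cldn4. The genes are the called members with the smallest p of each list, so their separation follows in part from that choice and does not describe whole lists.

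Part of the epithelial genes and of the AP-1 factors fell beside them. Of 16 genes for junctions and keratins, 9 fell and none rose, and 3 to 8 did so with the library set as a term. Krt18, a keratin of simple epithelia, was at 286, 255 and 236 CPM on stiff and between 147 and 174 CPM (median 161) on soft (log2 fold change -0.68, SE 0.06, adjusted p = 3.88e-13). Its partner Krt8 was at 293, 257 and 260 CPM on stiff and between 152 and 188 CPM on soft, a 1.605-fold fall. Krt19 fell 1.58-fold, and Cldn4, a tight junction claudin, 1.22-fold. Keratin genes have processed copies in the genome, and how reads that match several places were counted was not stated. Of 8 AP-1 and ATF factors, 4 fell and none rose (background 3.42% lower). The list as a whole did not shift, with 4 positive and 4 negative log2 fold changes and a median of -0.03. Fosl1, low in level and not called, was higher on soft without overlap, at 0.577 to 1.19 CPM on stiff and 1.21 to 1.77 CPM on soft. Fosl2, a FOS-family subunit of AP-1, fell 1.77-fold, from 25.4, 21.3 and 21.4 CPM to between 11.04 and 14.1 CPM, and its dimer partner Jun fell 1.49-fold, from 33.95, 25.5 and 25.9 CPM to between 17.5 and 19.9 CPM. Jund and the stress-induced Atf3 fell 1.18-fold and 1.57-fold, and both lost the call under most set assignments (kept in 16 and 8 of 45).

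Markers of other cell types were present at low to moderate levels, and part of them moved with the substrate. In such bulk libraries fewer cells of a type and less RNA per cell cannot be told apart. Of 6 trophoblast markers, 5 fell and none rose (background 3.42% lower and 2.13% higher). Hand1, a factor of trophoblast giant cells, was at 56.0, 49.7 and 51.3 CPM on stiff and between 27.1 and 35.1 CPM (median 30.6) on soft, a 1.71-fold fall (log2 fold change -0.77, SE 0.08, adjusted p = 3.79e-10). Cdx2, which specifies trophectoderm, fell from 7.43, 7.86 and 7.001 CPM to between 3.93 and 5.65 CPM. Krt7, Gata3 and Tfap2a fell 1.495-fold, 1.22-fold and 1.29-fold, while Elf5, the sixth, was at 0.257 to 0.513 CPM on stiff and 0.109 to 0.861 CPM on soft. The 6 markers summed to 196 to 212 CPM on stiff and 141 to 156 CPM on soft, and 1 to 5 of them passed with the library set as a term. Of 11 primitive endoderm markers, 1 rose and 2 fell (27.3% called, against 5.55% of all genes tested). Their log2 fold changes were positive for 3 and negative for 8, with a median of -0.11. The sum was 521 to 531 CPM on stiff and 321 to 363 CPM on soft. Most of that sum was Lrp2, the endocytic receptor megalin, at 392, 394 and 393 CPM on stiff and between 210 and 245 CPM on soft (log2 fold change -0.80, SE 0.05, adjusted p = 6.93e-18). Its adaptor Dab2 fell 1.28-fold, and its co-receptor Cubn, cubilin, went the other way, from 9.74, 5.48 and 8.86 CPM to between 9.51 and 15.5 CPM, with overlap (log2 fold change 0.59, adjusted p = 0.0105). The defining factor Gata6 was at 10.3, 8.63 and 11.4 CPM on stiff and between 5.88 and 9.39 CPM on soft, with overlap (log2 fold change -0.44, adjusted p = 0.0577). Gata4 and Sox17 were at 3.76 to 5.83 CPM and 0.578 to 1.34 CPM on stiff and at 3.17 to 5.46 CPM and 0.554 to 1.06 CPM on soft.

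Fibroblast markers summed to 67.3 to 77.6 CPM on stiff and 30.2 to 41.5 CPM on soft. Of the 6 tested, 2 fell (33.3%, against 3.42% of all genes tested that fell). These were Col1a1 and Col1a2 (1.85-fold), which also belong to the collagen list. The others were low: Postn, periostin, was at 2.33 to 2.51 CPM on stiff and between 0.856 and 1.42 CPM on soft, without overlap (adjusted p = 0.112), Col3a1 at 0.368 to 1.35 CPM and 0.152 to 0.581 CPM, Dcn, decorin, a proteoglycan that marks fibroblasts, did not exceed 0.450 CPM in any library, Lum was at 0 in all 3 stiff libraries, and Thy1 was at 2.25 to 3.15 CPM on stiff and 1.78 to 3.87 CPM on soft. The part of such cells in the lower collagen levels was not tested. Primitive streak markers (9.63 to 10.6 CPM summed on stiff and 8.46 to 10.4 CPM on soft), neuroectoderm markers (87.8 to 93.2 CPM and 83.8 to 94.8 CPM) and markers of 2-cell-like cells (0.941 to 2.57 CPM and 0.608 to 2.07 CPM) held no gene that passed the test, of 6, 4 and 4 tested.

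Naive pluripotency genes were higher on soft by small amounts. All 15 were tested, 7 rose and none fell (background 2.13% higher), and the median log2 fold change was 0.16. Esrrb, an orphan nuclear receptor of the naive network, was at 432, 413 and 408 CPM on stiff and between 477 and 505 CPM (median 490) on soft, a 1.17-fold rise (log2 fold change 0.23, SE 0.04, adjusted p = 4.78e-05). Nr0b1, its partner in the network, was at 44.6, 41.0 and 43.8 CPM on stiff and between 50.1 and 55.6 CPM on soft, and rose 1.23-fold. The Krüppel-like factors Klf4 and Klf5 rose 1.14-fold and 1.18-fold, Klf4 from 244, 260 and 244 CPM to between 271 and 296 CPM and Klf5 from 445, 447 and 429 CPM to between 487 and 552 CPM. Soft and stiff values did not overlap in these 4 genes. Dppa3 (log2 fold change 0.24), Tfcp2l1 (0.16) and Nanog (0.15) passed more narrowly. Nanog, a core factor of self-renewal, was at 792, 768 and 778 CPM on stiff and between 816 and 903 CPM on soft (adjusted p = 0.0479), and it kept its call under none of the 45 set assignments and in 1 of the 9 fits that left out a library. Dppa3 and Tfcp2l1 kept theirs in 3 of 45. The other 8 genes (Klf2, Tbx3, Zfp42, Prdm14, Nr5a2, Tcl1, Gbx2 and Fbxo15) had positive log2 fold changes from 0.07 to 0.42 and did not pass, and those of Klf2 and Zfp42 turned slightly negative under some set assignments. With the set as a term 2 to 5 naive genes were higher, and 4 to 7 with single libraries left out. Summed, the 15 genes lay at 4370 to 4470 CPM on stiff and 4764 to 5042 CPM on soft.

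Genes shared by all pluripotent states had a median log2 fold change of 0.12. Of 5, Sox2 alone rose, from 295, 304 and 300 CPM to between 318 and 369 CPM (log2 fold change 0.18, SE 0.04, adjusted p = 0.00128), and it kept the call in 24 of 45 set assignments. Pou5f1 (OCT4) was at 620, 600 and 603 CPM on stiff and between 519 and 695 CPM on soft, with a soft library on either side of the stiff ones. Sall4, Dppa4 and Lin28a had log2 fold changes of 0.12, 0.14 and -0.05. None of the 8 formative genes, which mark cells leaving the naive state, passed the test in either direction. Among them the de novo methyltransferase Dnmt3b was at 67.6, 64.4 and 61.1 CPM on stiff and between 54.2 and 63.6 CPM on soft (log2 fold change -0.10, SE 0.06), and Otx2 at 37.1, 43.0 and 44.2 CPM and between 42.7 and 49.2 CPM (0.11, SE 0.07). Foxd3, Zic2 and Dnmt3a had log2 fold changes of 0.15, 0.12 and -0.01. Pou3f1, at 3.90 to 6.18 CPM on soft, Lef1, at 0.748 to 1.67 CPM, and Fgf5, at 0.101 to 0.352 CPM, were low in this medium. The plot of pluripotency genes by library shows how little the 2 substrates were apart next to the cytoskeletal genes.

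**Figure D3:**
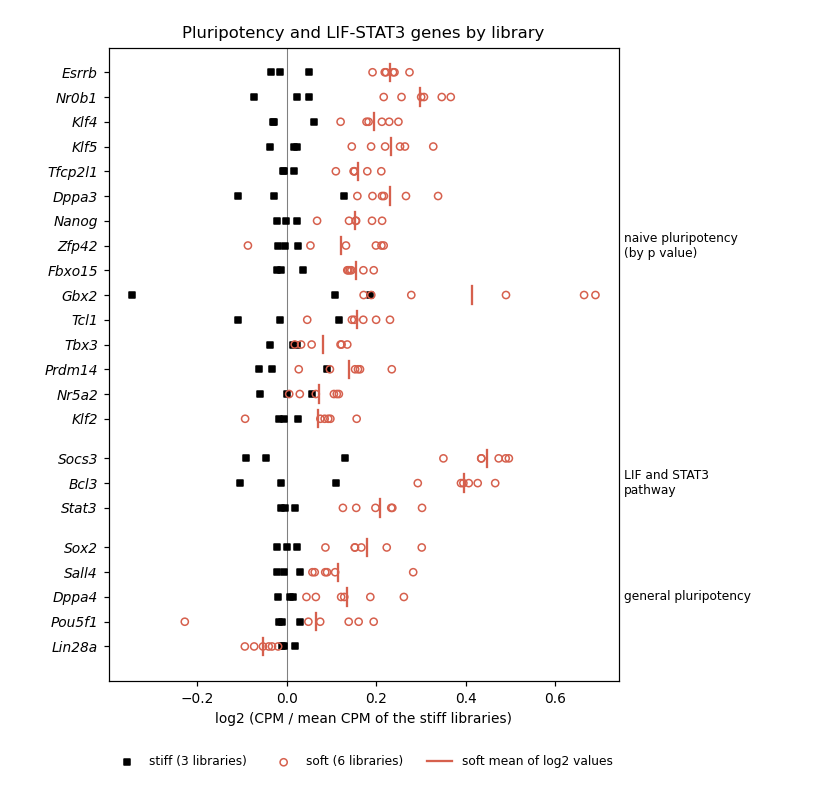
Log2 ratio of each library's CPM to the mean of the 3 stiff libraries (x axis) for naive, LIF-STAT3 and general pluripotency genes (y axis), stiff as black squares, soft as open circles and the soft mean as a bar. Soft means lie right of 0 for all 15 naive genes, and Klf2, Zfp42 and Pou5f1 have soft libraries on both sides of the stiff ones.

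No LIF was added to this medium, and part of the genes of its pathway were higher on soft. Of 12 tested, 6 rose and none fell (background 2.13% higher). The median log2 fold change was 0.18, and 2 to 5 genes passed with the set as a term. In serum 4 of the 12 were higher and 1 lower on soft, with a median of 0.12. In serum + LIF + PD03, 3 were higher and none lower, with a median of 0.11. Socs3, a STAT3 target that feeds back on the receptor, was at 40.8, 47.5 and 42.1 CPM on stiff and between 55.4 and 61.3 CPM (median 59.5) on soft, a 1.36-fold rise (log2 fold change 0.44, SE 0.07, adjusted p = 3.25e-06). Bcl3, another STAT3 target, was at 80.6, 87.8 and 75.7 CPM on stiff and between 99.6 and 112 CPM on soft, a 1.31-fold rise. Stat3 itself rose 1.16-fold, from 77.1, 78.3 and 76.6 CPM to between 84.4 and 95.4 CPM, and kept its call in 15 of 45 set assignments. Klf4 and Tfcp2l1, which the naive list also holds, and the receptor gene Lifr (log2 fold change 0.15) were the remaining members that passed, Lifr being named after its value was seen.

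Calls among ERK-induced genes went in both directions. Of 18 tested, 2 rose and 2 fell (22.2% called, against 5.55% of all genes tested). The median log2 fold change was 0.09, with 12 positive and 6 negative values. Spry2, a feedback inhibitor of receptor tyrosine kinases, rose 1.27-fold, from 18, 16.3 and 15.99 CPM to between 18.5 and 24.2 CPM (log2 fold change 0.35, SE 0.07, adjusted p = 0.000868), and Etv1, an ETS factor, rose 1.16-fold. Ier3 and Dusp5 fell 1.33-fold and 1.28-fold, both with overlapping values, and Ier3 was at 9.51 to 13.3 CPM on stiff and 7.07 to 10.3 CPM on soft, against 5.27 to 7.17 CPM and 3.84 to 6.02 CPM in serum. Etv1 and Ier3 kept their calls in 3 of 45 set assignments and Dusp5 in 8. Of 16 components from FGF receptors to ERK, 1 passed (6.25%, close to the 5.55% of all genes tested), Fgfr2, a receptor that fell 1.19-fold.

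Other signalling pathways held few genes past the threshold. Among Nodal and TGF-beta genes, Tdgf1, the Nodal co-receptor Cripto, rose 1.19-fold (log2 fold change 0.25, SE 0.04, adjusted p = 1.05e-05), from 244, 239 and 231 CPM to between 271 and 295 CPM. Inhbb, an activin subunit, also rose, and Tgfb2 fell as described above. Of 9 BMP genes, Id3, an inhibitor of helix-loop-helix factors that BMP induces, fell 1.36-fold, from 15.5, 14.9 and 14.5 CPM to between 9.83 and 13.5 CPM. Of 10 Wnt genes, the secreted antagonist Dkk1 fell 1.49-fold and Tcf7, a nuclear effector, rose 1.15-fold with overlap.

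Metabolic and growth lists ranged from none to 46.2% of genes called, against 5.55% of all genes tested. None of 18 cholesterol synthesis and uptake genes passed (median log2 fold change 0.01). Of 16 glycolysis genes 4 passed (25%). The glucose transporters Slc2a1 and Slc2a3 fell and the enzymes Hk1 and Pfkp rose. Slc2a1 was at 553, 520 and 523 CPM on stiff and between 373 and 450 CPM on soft (log2 fold change -0.32, SE 0.06), whereas the rises of Hk1 (0.16) and Pfkp (0.18) were smaller. Slc2a3 and Hk1 kept their calls in 9 of 45 set assignments and Pfkp in 15. Of 13 cell cycle genes, 6 passed (46.2%). 4 rose by log2 fold changes of 0.18 to 0.27 (Ccnd3, Ccne1, E2f1 and Pcna), and 2 fell. The CDK inhibitor Cdkn1c fell 1.40-fold, from 52.5, 44.1 and 42.4 CPM to between 29.03 and 37.9 CPM, and Ccnd2, cyclin D2, 1.35-fold. With the set as a term, 0 to 3 cell cycle genes were higher. Uhrf1, which guides maintenance DNA methylation, rose 1.125-fold as the single one of 8 DNA methylation genes to pass. Of 14 amino acid stress genes Shmt2, a mitochondrial serine enzyme, rose 1.14-fold, and of 11 p53 targets Ccng1 fell 1.11-fold, shares (7.14% and 9.09%) not far from that of all genes. Uhrf1 and Shmt2 kept their calls in 18 of 45 set assignments and Ccng1 in 3. The plot of list members places the lists in the order of their medians.

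**Figure D4:**
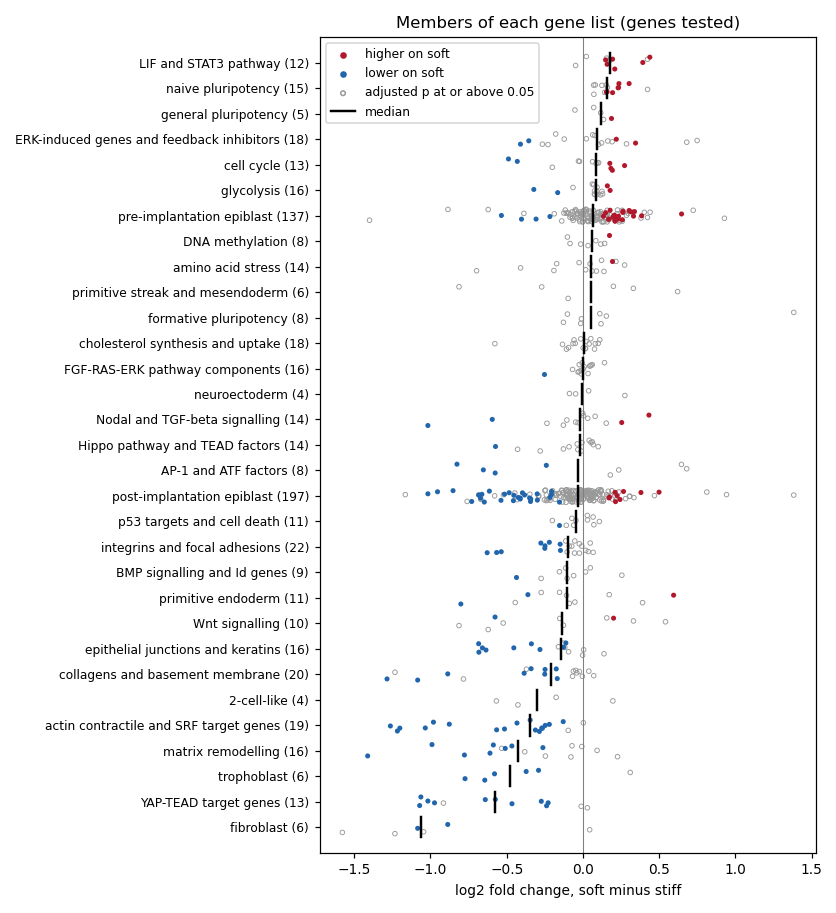
Log2 fold change, soft minus stiff (x axis), of every tested member of each gene list (y axis, number tested in brackets), with genes past the threshold filled and each list's median as a black bar. The medians run from -1.06 in the fibroblast list and -0.57 in the YAP-TEAD list to 0.18 in the LIF and STAT3 list, and among the 19 actin contractile genes none lies far above 0.

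Other genes outside the lists fell as far. Among genes with at least 5 CPM and no overlap between groups, Prss23, a secreted serine protease, fell the most, from 9.61, 8.18 and 8.67 CPM to between 2.27 and 4.64 CPM (median 3.38), which was 2.55-fold (log2 fold change -1.35, SE 0.15, adjusted p = 6.25e-09). Fras1, an adhesion protein of epithelial basement membranes, was at 11.3, 10.6 and 10.7 CPM on stiff and between 3.72 and 5.02 CPM on soft. Flt1, a receptor for VEGF, fell 2.15-fold, from 21.7, 18.6 and 17.2 CPM to between 8.10 and 10.2 CPM. The others were Pmp22, a membrane protein first known from myelin, which fell 2.18-fold, and Csf1, the macrophage growth factor, which fell 2.12-fold, from 26.8, 23.9 and 23.3 CPM to between 9.66 and 13.7 CPM. Together with Flnc, Acta2, Tagln, Col12a1 and Col1a1 they made up the 10 named genes with the largest falls, 5 of which were on the actin and collagen lists.

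The 10 largest rises by the same rule were smaller, with log2 fold changes of 0.44 to 0.65. The rule leaves out predicted gene models (2 of these, 2310043M15Rik at 0.45 and Gm14681 at 0.44, would otherwise have ranked among them) and genes under 5 CPM, where 4 rises exceeded a log2 fold change of 1. Trh, thyrotropin-releasing hormone, was at 6.86, 6.87 and 6.29 CPM on stiff and between 7.75 and 12.7 CPM (median 10.9) on soft, a 1.57-fold rise (log2 fold change 0.65, SE 0.13, adjusted p = 0.000592). Dlgap3, a postsynaptic scaffold protein, was at 63.5, 69.3 and 71.4 CPM on stiff and between 90.6 and 112 CPM on soft, and had the smallest p of the genes that rose (log2 fold change 0.52, SE 0.06, adjusted p = 9.54e-09). Rasgrp2, an exchange factor for RAP and RAS, rose 1.41-fold, from 15.6, 13.3 and 16.2 CPM to between 20.2 and 22.2 CPM. Khdc3, a maternal-effect gene of oocyte and early embryo, rose 1.39-fold, from 15.8, 17.5 and 15.7 CPM to between 20.4 and 26.04 CPM. Slc11a1, a metal transporter, rose 1.47-fold. The rest were Socs3, Adgrb1, Zfp600, Ly6g6e and Pcdhgc3, whose exons overlap those of the protocadherin gamma cluster, so that its counts are uncertain. Dlgap3, Rasgrp2 and Socs3 kept their calls in all 45 set assignments, Zfp600 in 29, Trh in 26, Khdc3 in 25, Ly6g6e in 18, Adgrb1 in 12, Slc11a1 in 9 and Pcdhgc3 in 3.

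Embryo-derived gene clusters were compared next. The study lists genes of the pre-implantation and of the post-implantation epiblast, chosen in embryos and then examined by the study in these samples. Of 137 pre-implantation genes tested, 22 rose and 4 fell, with a median log2 fold change of 0.07. Of 197 post-implantation genes 9 rose and 28 fell, with a median of -0.03. The shares called were 19% and 18.8%, against 5.55% of all genes tested, of which 2.13% were higher and 3.42% lower. With the set as a term, 5 to 17 pre-implantation genes were higher and 17 to 26 post-implantation genes lower. In the first cluster Tdh, threonine dehydrogenase, an enzyme highly expressed in mESCs, rose 1.26-fold, from 114, 104 and 106 CPM to between 133 and 139 CPM (adjusted p = 1.84e-07), and the RNA-binding factor Zfp36l1 rose 1.199-fold. Its 4 falls, a share close to the 3.42% of all genes tested, were Fstl1, Gpc4, S100a6 and Phldb1. The largest was that of S100a6, a calcium-binding protein (log2 fold change -0.53, SE 0.10). In the second cluster Car4, a carbonic anhydrase, fell 1.94-fold, from 13.7, 11.2 and 9.12 CPM to between 5.38 and 6.71 CPM, and Kif1a, a kinesin motor, 1.66-fold. Tpm2, a tropomyosin on the actin list as well, and Grb10, an adaptor of growth factor receptors, fell 1.43-fold and 1.27-fold. Among the post-implantation genes that rose were Rcn1, a calcium-binding protein of the endoplasmic reticulum (1.30-fold, from 59.8, 60.1 and 58.1 CPM to between 75.5 and 79.1 CPM), the Polycomb gene Phc1 (1.17-fold), Bahcc1 (1.16-fold) and Rasgrp2.

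Set beside serum without the inhibitor, the response to stiffness passed a test of a difference for a minority of genes. In serum 858 genes (4.85%) passed, 368 higher (2.08%) and 490 lower (2.77%). Of the genes called in serum + PD03, 304 were called with the same sign in serum, which is 31% of the former and 35.4% of the latter, and 14 were called with opposite signs. The 2 comparisons use separate libraries. In serum, however, soft and stiff libraries belong to different sets throughout, so that there set and substrate cannot be told apart. A direct test of the difference between the 2 responses (an interaction term) found 141 genes (0.797%), 72 with a more positive response under PD03 (0.407%) and 69 with a more negative one (0.39%). Left out singly, several libraries lowered this count: it was 49, 85 and 90 without soft serum library 2, 3 and 1, 91 without stiff serum library 2, and 68, 85 and 68 without stiff serum + PD03 library 1, 2 and 3. Of the 141, 71 were called in serum and not under PD03, and 34 the reverse. At an unadjusted p under 0.05 the interaction test gave 2024 genes. A gene that did not pass is not thereby shown to respond alike in the 2 media.

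The 5 genes with the smallest interaction p all changed sign. Sh3pxd2a, a scaffold of matrix-degrading podosomes, was at 75.5, 74.5 and 68.5 CPM on stiff and between 51.5 and 56.8 CPM on soft under PD03, but at 48.0 to 49.8 CPM on stiff and 55.8 to 61.5 CPM on soft in serum (difference of log2 fold changes -0.69, SE 0.07, adjusted p = 4.495e-09). Fabp3, a fatty acid carrier, stood at 302 to 319 CPM on stiff and 217 to 254 CPM on soft under PD03, against 55.2 to 63.2 CPM and 69.4 to 75.5 CPM in serum (difference -0.69). AU015836 behaved likewise (difference -0.76). The metallothioneins Mt1 and Mt2, which bind zinc and copper, went the opposite way. Mt1 was at 162, 174 and 163 CPM on stiff and between 191 and 217 CPM on soft under PD03, against 242 to 287 CPM and 184 to 200 CPM in serum (difference 0.75, SE 0.09, adjusted p = 1.42e-07), and Mt2 also had a difference of 0.75. The rise of Mt2 under PD03 (log2 fold change 0.21, adjusted p = 0.0342) was kept in none of the 45 set assignments, and that of Mt1 in 18. The falls of Sh3pxd2a and Fabp3 were kept in all 45 and that of AU015836 in 27. Beyond the rule for named genes, and chosen after their values were seen, the other 9 of the 14 genes called with opposite signs were Ccnd2, Utrn and Bcor, lower here, and Zfp36l2, Foxh1, Aplp1, Isyna1, Mkrn1 and Alox15, higher here. Utrn kept its call in serum + PD03 in all 45 set assignments and Bcor in 33, but Ccnd2 in 15, Alox15 in 12, Foxh1, Isyna1 and Zfp36l2 in 9, Mkrn1 in 6 and Aplp1 in 3. Alox15, a lipoxygenase, was at 0, 0.0818 and 0 CPM on stiff and between 0.151 and 0.557 CPM on soft, close to the detection limit.

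For part of the naive genes the response, measured as a log2 fold change, was smaller under PD03 than in serum. In serum 12 of the 15 were higher on soft, with a median log2 fold change of 0.40 against 0.16 here, and 6 of the 15 passed the interaction test, all with a negative difference. Tbx3, a T-box factor of the naive network, was at 67.5 to 75.3 CPM on stiff and 93.1 to 100.1 CPM on soft in serum, and at 555 to 579 CPM on stiff and 577 to 626 CPM on soft under PD03 (difference -0.38, SE 0.06, adjusted p = 0.000405). Prdm14, a repressor of FGF signalling and DNA methylation, was at 4.30 to 5.48 CPM and 8.29 to 9.64 CPM in serum and at 43.7 to 48.6 CPM and 46.5 to 53.7 CPM under PD03 (difference -0.73). Fbxo15, Klf2, Nr5a2 and Tfcp2l1 had differences of -0.46, -0.35, -0.29 and -0.27. Levels of Tbx3 and Prdm14 under PD03 were several times those in serum on either substrate. The comparison is therefore one of ratios and does not hold for every gene as a difference in CPM. In the other direction, Pou3f1, a POU factor of formative cells, was lower on soft in serum (44.7 to 52.0 CPM against 76.2 to 84.5 CPM) and had a more positive response under PD03 (difference 0.73, SE 0.16, adjusted p = 0.0122), where it was at 3.90 to 6.18 CPM. Spry2 (difference 0.42), Ccne1 (0.28) and Shmt2 (0.26) also had a more positive response, and Ccnd2 (-0.85), Lrp2 (-0.47), Id3 (-0.53) and Fstl1 (-0.31) more negative ones. Of the 16 glycolysis genes 5 passed this test, all with a positive difference, and they are named after their values were seen: Slc16a3, the lactate exporter (0.64), Eno1 (0.33), Gapdh (0.30), Ldha (0.27) and Aldoa (0.25), of which the last 4 have processed copies whose reads may be shared. No gene of the actin list was past the threshold of this interaction.

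With LIF added to serum + PD03, 1 gene had a response that passed the test of a difference from the one without it, which does not show that the responses were alike. There 1348 genes (7.61%) passed, 495 higher (2.8%) and 853 lower (4.82%) on soft, and 644 genes were called in both media with the same sign, 65.6% of those called here and 47.8% of those called with LIF, and none with opposite signs. The actin list had a median log2 fold change of -0.56 with LIF against -0.35 without it, matrix remodelling genes -0.53 against -0.42, and the YAP-TEAD list -0.61 against -0.57. Differences between the lists' medians were not tested. Single genes such as Krt18 (-1.04 against -0.68) and Lox (-2.04 against -1.41) also had larger values with LIF, without passing the test of the difference. The interaction test found 1 gene of those tested (0.00565%), Thbs1 (830 at an unadjusted p under 0.05, and 3 genes by DESeq2), which fell by more with LIF (87.3 to 92.0 CPM on stiff and 28.9 to 29.6 CPM on soft) than without it (difference 0.57, adjusted p = 0.0255). Leaving out single libraries gave 0 to 3 genes, and 0 for 9 of the 15 libraries of these groups, the 3 stiff ones in serum + PD03 among them. Flnc and Acta2 came next, at differences of 0.47 and 0.65 (adjusted p = 0.0521 and 0.0534), then Hist1h3h and the glycolytic regulator Pfkfb3, at -0.70 and 0.53 (adjusted p = 0.0867 and 0.235). The set assignments left between 0 and 4 genes. The plot of levels in the 3 media shows the sign changes of the first 5 genes. It also shows the naive genes Tbx3, Prdm14 and Fbxo15 at higher levels in serum + PD03 than in serum. Other naive genes went the opposite way: Klf5, Nr0b1 and Gbx2 were lower in serum + PD03 than in serum on both substrates.

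**Figure D5:**
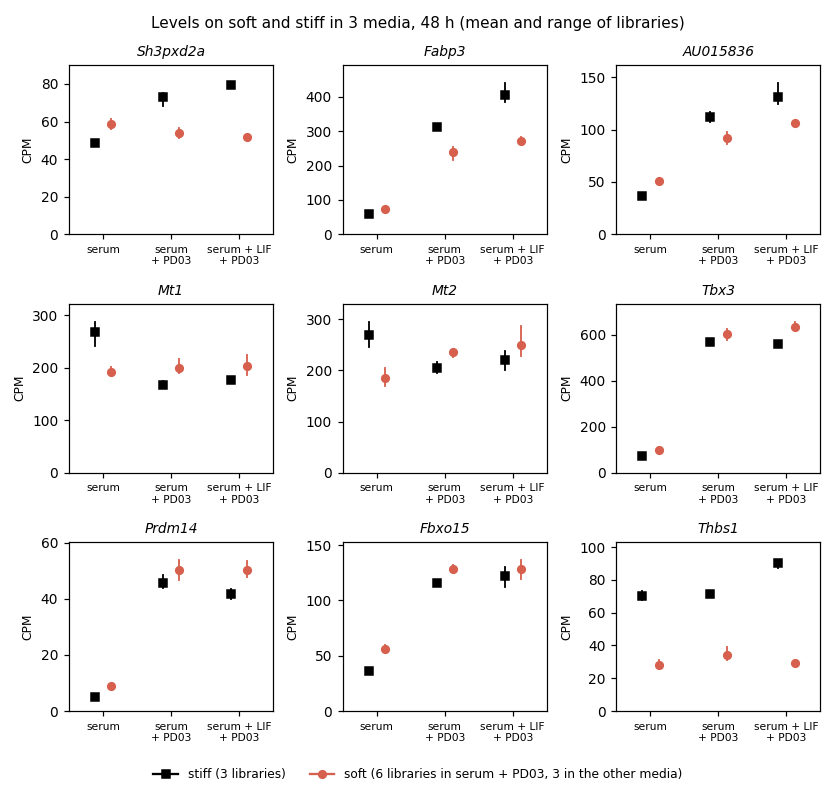
CPM (y axis) on stiff (black squares) and soft (red circles) in serum, serum + PD03 and serum + LIF + PD03 (x axis) for 9 genes, as mean and range of 3 libraries, or 6 on soft in serum + PD03. Soft lies above stiff in serum and below it with PD03 for Sh3pxd2a, Fabp3 and AU015836, the reverse holds for Mt1 and Mt2, and Thbs1 is lower on soft in all 3 media.

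Variation among the 6 soft libraries was led by genes that are hard to count. The 5 most variable, among those with at least 5 CPM on soft, were the histone genes Hist1h3c, Hist1h4h and Hist1h4n, which have near-identical copies, the small RNA model Gm23442 and ENSMUSG00000096807, which the annotation used for coordinates does not hold. Hist1h4h ranged from 49.8 to 350.0 CPM on soft and from 45.6 to 310 CPM on stiff, with widely spread values in both groups. None of the 5 passed the test between substrates.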

How the data were processed

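RNA from mESCs on StemBond hydrogels had been sequenced in 36 libraries of 11 groups. Per the methods and the submitters' processing notes, the authors aligned reads with STAR 2.5.2a to GRCm38 and counted them per Ensembl gene with htseq-count. The deposited values are whole-number counts per gene, not normalized. Whether strand was used and how reads with several matches were treated are not given in the sources used here, so genes that overlap others or have near-identical copies are uncertain. Columns name groups and no replicate, and library numbers are only names.

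From these counts, genes were filtered with filterByExpr (17702 of 49671 kept, holding 99.92% of counts), scaled by TMM and fitted over all 36 libraries with edgeR 4.0.16 in R 4.3.3 (quasi-likelihood test, 1 mean per group). Contrasts were soft minus stiff in serum + PD03, and its difference from the same contrast in serum and in serum + LIF + PD03. P-values were adjusted by Benjamini and Hochberg over all genes tested, at a threshold of 0.05, and every adjusted p comes from these fits. Fold changes are ratios of fitted means. The test was checked on simulated counts.

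Genes named were the 10 per direction with the largest fold among called genes with at least 5 CPM and no overlap (predicted gene models and genes without a symbol left out), up to 4 called members per direction of each list, all pluripotency genes, the 5 strongest of each interaction, the 5 most variable among soft libraries, called markers of other cell types and 3 ERK targets. Some listed genes are not reported here. The members and lists were chosen with earlier results of these data known. Alternatives were RLE and upper-quartile scaling, other filters, DESeq2 1.42.0, the 9 libraries alone, each library left out, and the library set as a term. Promoters came from RefSeq (GRCm38.p6). Libraries held 10405696 to 24487753 counts, and no pair of libraries of either group was a duplicate. Precision at low levels is limited by counting.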

Additional observations from a re-analysis of the deposited data

Results flagged for a closer look

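Of 162 named genes examined for a soft library far from the other 5, 13 had one. Of these 13, 3 were among the 5 genes named for their spread on soft, so the number is not comparable with the 1 in 20 groups that chance flags. Soft library 3 accounted for 6 of them, with Dlgap3 at 111.6 CPM (the next at 96.6 CPM), Sall4 at 1633 CPM (1447 CPM), Pfkp at 116 CPM (106 CPM) and Axl at 4.43 CPM (3.57 CPM) the highest, and Klf2 at 348 CPM (391 CPM) and Gm23442 at 0.554 CPM (5.42 CPM) the lowest. Soft library 2 accounted for ENSMUSG00000096807 at 41.1 CPM and Tpm1 at 269 CPM. Soft library 1 held the lowest values of Fras1 (3.72 CPM) and Hist1h4h (49.8 CPM). Soft library 4 held the highest values of S100a6 (19.3 CPM) and Dusp5 (13.8 CPM), and soft library 5 that of Atf3 (4.10 CPM).

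The response to substrate differed between serum + PD03 and serum in 141 genes and between serum + PD03 with and without LIF in 1, by an interaction term in edgeR. Among named genes, the difference of log2 fold changes under PD03 was positive for Mt1 (0.75), Mt2 (0.75), Pou3f1 (0.73), Slc16a3 (0.64), Zfp36l2 (0.50), Spry2 (0.42), Foxh1 (0.40), Aplp1 (0.40), Isyna1 (0.37), Eno1 (0.33), Gapdh (0.30), Mkrn1 (0.28), Ccne1 (0.28), Ldha (0.27), Shmt2 (0.26) and Aldoa (0.25). Alox15 had a fitted difference of 3.98 that rests on near-zero levels on stiff and is no measure of size. It was negative for Ccnd2 (-0.85), AU015836 (-0.76), Prdm14 (-0.73), Sh3pxd2a (-0.69), Fabp3 (-0.69), Id3 (-0.53), Lrp2 (-0.47), Fbxo15 (-0.46), Bcor (-0.45), Utrn (-0.43), Tbx3 (-0.38), Klf2 (-0.35), Fstl1 (-0.31), Nr5a2 (-0.29) and Tfcp2l1 (-0.27). For LIF the gene was Thbs1 (0.57). Library set and substrate coincide in the reference media, so their parts in these differences cannot be told apart.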

How the results depend on the processing

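No paired analysis was possible because the columns of counts carry no replicate number. The 982 genes called between soft and stiff became 869 to 1161 under other scaling, filters, DESeq2 or the 9 libraries alone, and 734 with an absolute log2 fold change over 0.2 required as well. Leaving out single libraries gave 520 to 954, the library set as a term as few as 276, and the 3 stiff libraries against 2 soft ones 296 to 631 over 15 pairs; fewer samples enter these fits or the contrast rests on fewer soft libraries. The 141 genes of the interaction with PD03 became 222 without the filter, 311 with DESeq2, 49 to 137 with single libraries left out and 76 to 124 with the set. The 1 gene of the interaction with LIF became 21 without the filter, 3 with DESeq2, and 0 to 3 and 0 to 4 with libraries left out and with the set. The cause was not tested for changes with filter or tool.

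No named gene past the threshold changed sign under any of these alternatives. Some genes that did not pass had log2 fold changes of the other sign. With the set as a term, and over the 15 pairs, the extremes were 0.10 and 0.10 for Dnmt3a, -0.0867 and -0.088 for Dusp6, -0.10 and -0.11 for Etv4, 0.39 and 0.39 for Hist1h3c, 0.10 and 0.10 for Hist1h3h, -0.55 and -0.55 for Hist1h4h, 0.16 and 0.16 for Hist1h4n, -0.00714 and -0.00670 for Klf2, 0.19 and 0.19 for Lef1, 0.033 and 0.037 for Pfkfb3, 0.30 and 0.29 for Pou3f1, -0.0856 and -0.0886 for Pou5f1, -0.016 and -0.014 for Zfp42, -0.013 and -0.0092 for Slc16a3, and -0.036 and -0.034 for Srf. Srf was also at -0.0082 with upper-quartile scaling, -0.0075 without the filter, -0.013 in the 9 libraries alone and -0.00385 at a mean of at least 1 CPM, Dusp6 at -0.00128 in the 9 libraries alone, and Hist1h3h at 0.00062 with RLE scaling. With single libraries left out the ranges were -0.058 to 0.024 for Dnmt3a, -0.078 to 0.075 for Dusp6, -0.042 to 0.069 for Hist1h3h, -0.20 to 0.65 for Hist1h4h, -0.25 to 0.051 for Lef1, -0.099 to 0.055 for Pou3f1 and -0.015 to 0.019 for Srf. Depth limits genes near or below 1 CPM, such as the ERK target Spry4.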

Other observations

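Imprinted genes, expressed from a single parental allele, were often lower on soft. The group was chosen after values were seen, so its count is a description. Of 36 tested, 16 fell and none rose (44.4%, against 3.42% of all genes tested that fell), with a median log2 fold change of -0.24. Igf2, a fetal growth factor, was at 960, 847 and 826 CPM on stiff and between 436 and 560 CPM (median 524) on soft (log2 fold change -0.79, SE 0.08, adjusted p = 4.78e-11 by edgeR's quasi-likelihood test). The neighbouring non-coding RNA H19, expressed from the other allele, was at 242, 218 and 236 CPM on stiff and between 135 and 159 CPM on soft, a fall of similar size (log2 fold change -0.62). Peg10, a retrotransposon-derived gene of the placenta, was among the most abundant, at 3804, 3657 and 3462 CPM on stiff and between 2040 and 2427 CPM on soft (log2 fold change -0.71). Peg3, a zinc finger gene, fell from 393.5, 393.5 and 360.2 CPM to between 238 and 272 CPM. In each of these 4 genes all soft libraries lay below all stiff ones. Genes of both parental origins were among the falls, with the maternally expressed Cdkn1c, Phlda2, Ascl2 and Grb10 at log2 fold changes of -0.49, -0.45, -0.72 and -0.34. Phlda2 and Ascl2 are known for roles in the placental lineage, whose markers were also lower on soft. The part of such cells in these values was not tested. In serum 8 of the 36 genes fell, in serum + LIF + PD03 16 did, and none rose in either.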
